A study of Mus musculus with 8 samples.

Results

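The miR-15, miR-16 and miR-195 family was taken as 9 mature miRNA names of the deposited table, chosen by name among its 1624 mature names: the guide arms mmu-miR-15a-5p, mmu-miR-15b-5p, mmu-miR-16-5p, mmu-miR-195a-5p and mmu-miR-497a-5p, and the opposite arms mmu-miR-15a-3p, mmu-miR-15b-3p, mmu-miR-16-1-3p and mmu-miR-16-2-3p. The prefix mmu, for mouse, is left out from here on. They were measured by small RNA sequencing in mesenchymal stromal cells (MSCs) of pancreas (pMSCs, 4 libraries, numbered 5 to 8) and of inguinal white adipose tissue (iwatMSCs, 4 libraries, numbered 13 to 16). Cells of both groups came from untreated C57BL/6J males that were 8 weeks old and were fed a standard diet. They were sorted as CD31-, CD45- and SCA1+ cells, which leaves out endothelial and haematopoietic cells, and were expanded in culture for 4 days before RNA was isolated. Cells of 3 to 5 mice were pooled, so a library stands for a pool and not for 1 animal. The study asked how the miRNAs of these MSCs differ between the pancreas and the fat depot. Its comparison used 7 libraries, without pMSCs library 7, and the fold changes here are given for those 7 and for all 8. Pancreas and fat were taken from the same mice, but the labels do not tie a pMSCs library to an iwatMSCs library, so the groups were tested as unpaired.

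A hairpin precursor gives a guide arm, which is loaded into Argonaute, and a passenger arm, which is mostly degraded. The guide pairs with messenger RNAs through its seed, bases 2 to 8, and lowers their stability and translation. Guides of this family are known as brakes on the cell cycle and on survival, with Ccnd1, Ccne1, Wee1, Chek1 and Bcl2 among their known targets, and miR-195a and miR-497a are known for restraining the cycle in muscle. In humans, loss of the miR-15a and miR-16-1 locus is a known event in chronic lymphocytic leukaemia.

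The guide arms are shown because all 5 carry the same seed, the part that selects targets, while they differ behind it. The sequences are those of RefSeq (build GRCm38.p6, 5′ to 3′), with the seed in capitals.
miR-15a-5p: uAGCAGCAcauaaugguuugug
miR-15b-5p: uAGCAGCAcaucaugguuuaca
miR-16-5p: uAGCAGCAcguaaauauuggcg
miR-195a-5p: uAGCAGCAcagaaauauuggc
miR-497a-5p: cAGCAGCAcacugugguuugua
miR-322-5p: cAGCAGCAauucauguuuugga
The last of them, miR-322-5p, is no member by name and has the same seed. It is the only such name besides the guides among the 1167 of 1383 known names of the table that matched a RefSeq sequence, and the seed of the other names was not checked. In RefSeq, 10 of 1679 mature mouse names (0.596%) hold AGCAGCA at bases 2 to 8, and 6 of these have a row in the table. Over all bases compared, seed included, miR-15a-5p and miR-15b-5p differed at 4 of 22, and miR-16-5p and miR-195a-5p at 2 of 21. By the same count miR-16-5p and miR-497a-5p differed at 11 of 22. All these differences lay outside the seed. The passenger arms of miR-16 are shown because they alone tell the 2 miR-16 loci apart, again with bases 2 to 8 in capitals.
miR-16-1-3p: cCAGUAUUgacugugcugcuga
miR-16-2-3p: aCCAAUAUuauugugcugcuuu

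The members come from 3 loci, each a close pair of hairpins. Mir15a and Mir16-1 lie within 217 bases on the minus strand of chromosome 14, with miR-15a-5p at chr14:61632075-61632096 in an intron of Dleu2, a long noncoding RNA gene, and miR-16-5p at chr14:61631936-61631957 in the Mir16-1 hairpin, which overlaps an annotated Dleu2 exon in part. Mir15b and Mir16-2 lie within 225 bases on the plus strand of chromosome 3, in an intron of Smc4, which encodes a condensin subunit, with miR-15b-5p at chr3:69009775-69009796 and miR-16-5p at chr3:69009918-69009939. Mir497 and Mir195a lie within 419 bases on the plus strand of chromosome 11, with miR-497a-5p at chr11:70234730-70234751 and miR-195a-5p at chr11:70235062-70235082. Reads of miR-16-5p have the same sequence from either locus, so its count is a sum over both.

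Each library held 20793619 to 25824261 reads of small RNA, of which 35.8 to 41.0% were on mature miRNAs. Levels are given as CPM, the read count of a name normalised to the mature miRNA reads of its library, scaled by the trimmed mean of M-values (TMM). The guides are 21 or 22 bases long, so their CPM were set side by side without a length correction. Library 15 of the iwatMSCs stood apart by high values: 10 of 184 names with at least 100 CPM lay more than 2 times above every other iwatMSCs library there, against 0 to 2 in any other library, and miR-195a-5p was among the 10. Names more than 2 times below every other library of their tissue numbered 5 in pMSCs library 7 and 4 in iwatMSCs library 14. They numbered 1 in library 15 and 0 to 3 in the remaining libraries. Of the marker miRNAs, the 7 mesenchymal names summed to 63215 to 78466 CPM in pMSCs and to 44827 to 54008 CPM in iwatMSCs. In pMSCs most of that sum was miR-143-3p, with 44734 to 61443 CPM. In iwatMSCs miR-143-3p had 13467 to 17515 CPM, less than the other mesenchymal names together. It was called higher in pMSCs, as was miR-145a-5p. By contrast, miR-199a-5p had 8222 to 12128 CPM in pMSCs and 11090 to 17759 CPM in iwatMSCs, with overlap. For miR-214-3p the values were 1356 to 2537 CPM in pMSCs and 3076 to 19352 CPM in iwatMSCs. Neither miR-199a-5p nor miR-214-3p was called. miR-199a-3p had 11.3 to 87.8 CPM in pMSCs. In iwatMSCs it had 8961 and 10521 CPM in libraries 13 and 14, and 34.6 and 108 CPM in libraries 15 and 16. miR-199b-3p had 4573 to 6002 CPM in pMSCs. In iwatMSCs it had 113 and 125 CPM in libraries 13 and 14, and 6984 and 7999 CPM in libraries 15 and 16. Neither name was called, and what split the iwatMSCs libraries was not tested. The 5 epithelial names of the miR-200 family summed to 235 to 584 CPM in pMSCs and to 12.3 to 20.05 CPM in iwatMSCs, and the 5 pancreas names to 265 to 847 CPM in pMSCs and to 3.96 to 23.2 CPM in iwatMSCs. All 10 of these epithelial and pancreas names were called higher in pMSCs. The 2 endothelial names summed to 218 to 417 CPM in pMSCs and to 196 to 353 CPM in iwatMSCs, the 5 erythroid names to 61.4 to 107 CPM in pMSCs and to 79.0 to 140.5 CPM in iwatMSCs, and the 4 haematopoietic names to 9.65 to 18.8 CPM in pMSCs and to 27.6 to 33.7 CPM in iwatMSCs, with no call in these lists. Of the 4 haematopoietic names, miR-142a-3p was at 0 in all 4 pMSCs libraries and at most 0.53 CPM in iwatMSCs. Most of the haematopoietic sum was miR-150-5p, with 9.36 to 18.4 CPM in pMSCs and 25.6 to 31.6 CPM in iwatMSCs, without overlap. The part of epithelial or pancreatic RNA in the differences described here was not tested, and in bulk libraries fewer cells of a type and less RNA per cell cannot be told apart.

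**Figure D1:**
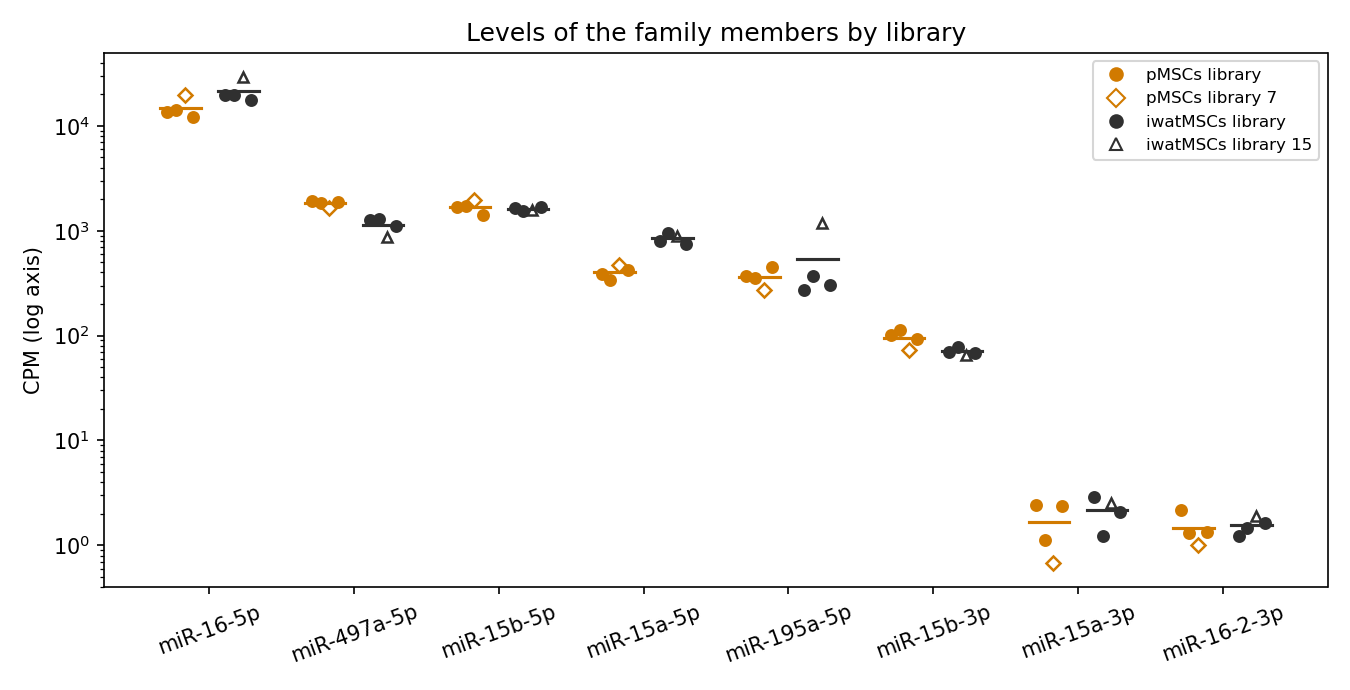
Level of the 5 guide arms and of miR-15b-3p in each library, in CPM on a log scale, with pMSCs left of iwatMSCs; bars are means of 4 libraries, the open diamond is pMSCs library 7 and the open triangle is iwatMSCs library 15. The 4 pMSCs libraries lie below all 4 iwatMSCs libraries for miR-15a-5p, between 342 and 466 CPM, and above them for miR-497a-5p, between 1642 and 1939 CPM.

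The plot of levels shows guides on very different scales. Levels and ranks are those of rows of type mature. The order of the guides below miR-16-5p changes when the hairpin rows described below are counted. miR-16-5p led the family in every library and ranked between 15 and 20 among all mature names in pMSCs and between 9 and 14 in iwatMSCs. In pMSCs it was followed by miR-497a-5p, with ranks of 48 to 55, and miR-15b-5p, with ranks of 48 to 57, whose CPM ranges overlapped. In iwatMSCs miR-15b-5p, with ranks of 51 to 56, lay above miR-497a-5p, with ranks of 59 to 75, in every library. The lowest guides in pMSCs were miR-15a-5p and miR-195a-5p, which overlapped. There miR-15a-5p ranked between 90 and 107 and miR-195a-5p between 89 and 115. In iwatMSCs miR-15a-5p ranked between 67 and 77, and miR-195a-5p between 58 and 121, and in library 15 miR-497a-5p was the lowest guide.

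miR-15a-5p, the guide of the Dleu2 locus, was the member with the clearest difference, and was lower in pMSCs. It had 390.0, 342, 466 and 420.0 CPM in pMSCs libraries 5 to 8, against 802, 959.5, 886 and 746 CPM in iwatMSCs libraries 13 to 16. The groups did not overlap, and the highest pMSCs library was library 7. Its mean was 384 ± 39.3 CPM in pMSCs without library 7 (SD, n = 3) and 848 ± 93.7 CPM in iwatMSCs (SD, n = 4). The log2 fold change was -1.18 (approximate SE 0.19), a 2.27-fold lower level in pMSCs (edgeR quasi-likelihood test, adjusted p = 0.00694). With all 8 libraries it was -1.07 (approximate SE 0.15, edgeR adjusted p = 0.00260).

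miR-16-5p, the most abundant guide and the product of both the Dleu2 and the Smc4 locus, had lower values in pMSCs but did not pass the test. It had 13435, 14270.1, 19486 and 12202 CPM in pMSCs libraries 5 to 8, and 19510.5, 19820.4, 29040.3 and 17566 CPM in iwatMSCs libraries 13 to 16. Library 15 was the highest of all, and pMSCs library 7 reached the iwatMSCs range, so the groups overlapped with 8 libraries and not with 7. The log2 fold change was -0.72 (approximate SE 0.18, edgeR adjusted p = 0.0636) with 7 libraries and -0.53 (approximate SE 0.21, edgeR adjusted p = 0.220) with 8. Without iwatMSCs library 15 it was -0.51 with pMSCs library 7 left out and -0.35 with it. On the deposited TPM of the 7 libraries, which was 54.8 to 62.4% of the reads in pMSCs and 38.8 to 53.3% in iwatMSCs for this guide, the log2 fold change was -0.38 (limma adjusted p = 0.560).

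miR-15b-5p, the guide of the Smc4 locus that differs from miR-15a-5p at 4 bases, had overlapping levels in the 2 tissues. It had 1669, 1710.2, 1949.8 and 1423 CPM in pMSCs libraries 5 to 8, and 1658, 1551, 1590.3 and 1667 CPM in iwatMSCs libraries 13 to 16. The pMSCs values spread on both sides of the iwatMSCs values. The log2 fold change was -0.06 (approximate SE 0.15, edgeR adjusted p = 0.872) with 7 libraries and 0.06 (approximate SE 0.14, edgeR adjusted p = 0.838) with 8.

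Its passenger arm, miR-15b-3p, was the only one of the 4 passenger arms chosen as members to pass 26 reads in a library. It had 101, 112, 73.0 and 92.2 CPM in pMSCs libraries 5 to 8, and 70.5, 78.4, 66.002 and 68.3 CPM in iwatMSCs libraries 13 to 16. The pMSCs values lay above those of iwatMSCs except in library 7, and the difference did not pass the test. The log2 fold change was 0.48 (approximate SE 0.18) with 7 libraries and 0.42 with 8, with an edgeR adjusted p of 0.244 in both. By DESeq2 it was called, with an adjusted p of 0.000483 with 7 libraries and 0.0388 with 8.

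miR-497a-5p, the guide of the chromosome 11 locus with a C in front of the seed, was the guide with higher values in pMSCs. It had 1939, 1852, 1642 and 1894 CPM in pMSCs libraries 5 to 8, against 1266, 1293, 869 and 1098 CPM in iwatMSCs libraries 13 to 16. The groups did not overlap in either set of libraries, and library 15 was the lowest. The log2 fold change was 0.69 in both (approximate SE 0.21 and 0.16), and it passed the edgeR test with 8 libraries (adjusted p = 0.0334) but not with 7 (adjusted p = 0.132). With 8 libraries and without iwatMSCs library 15 it was 0.59 and the call was lost (edgeR adjusted p = 0.0531).

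miR-195a-5p, whose hairpin lies beside that of miR-497a-5p, did not differ beyond its spread, and its direction rested on 1 library. It had 374, 353, 275 and 455 CPM in pMSCs libraries 5 to 8, and 270.0, 369.6, 1191 and 307 CPM in iwatMSCs libraries 13 to 16. Library 15 was 3.22 times the next highest iwatMSCs library, and the other 7 values overlapped. The log2 fold change was -0.43 (approximate SE 0.49, edgeR adjusted p = 0.684) with 7 libraries and -0.55 (approximate SE 0.46, edgeR adjusted p = 0.552) with 8. Without library 15 it was 0.32 (edgeR adjusted p = 0.412) and 0.21 (edgeR adjusted p = 0.627), so the sign turned in both.

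The remaining arms had few reads. miR-15a-3p had 6 to 23 reads in pMSCs and 10 to 26 reads in iwatMSCs, with a log2 fold change of -0.17 (approximate SE 0.46, edgeR adjusted p = 0.888) with 7 libraries and -0.40 (approximate SE 0.49, edgeR adjusted p = 0.686) with 8. miR-16-2-3p had 9 to 15 reads in pMSCs and 11 to 18 reads in iwatMSCs, with a log2 fold change of 0.00 to 2 decimals (approximate SE 0.38, edgeR adjusted p = 0.9995) with 7 libraries and -0.10 (approximate SE 0.37, edgeR adjusted p = 0.900) with 8. Neither arm passed the test in either set. miR-16-1-3p, the arm that marks the Dleu2 copy of miR-16, had at most 1 read in any library, in 1 pMSCs library and 3 iwatMSCs libraries, and was not tested because its mean was under 1 read. With 9 to 18 reads of miR-16-2-3p beside it, the arm counts do not tell how many of the miR-16-5p reads came from each locus.

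**Figure D2:**
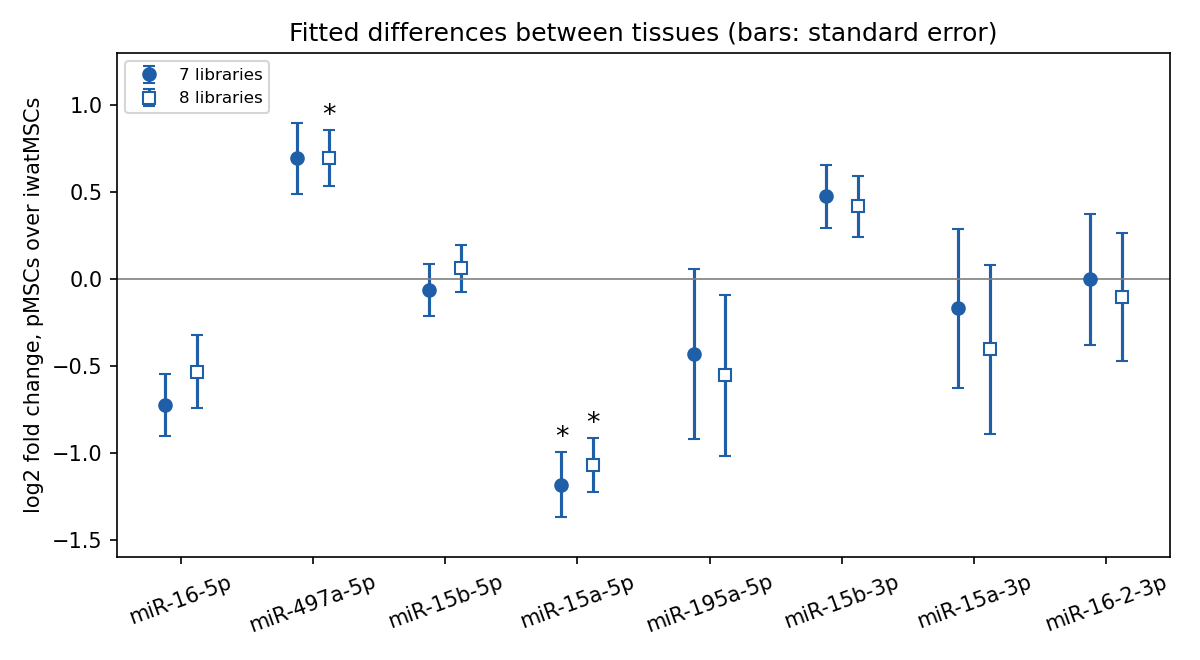
Log2 fold change of pMSCs over iwatMSCs for the 8 members tested, with 7 libraries and with all 8; bars are approximate standard errors, and asterisks mark an edgeR adjusted p under 0.05. miR-15a-5p lies at -1.18 and -1.07, miR-497a-5p at 0.69 in both, and miR-15b-5p changes sides between -0.06 and 0.06.

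Of the 9 members, 8 passed the filter of a mean of at least 1 read in a tissue. With 7 libraries, 0 were called higher and 1 was called lower in pMSCs, by edgeR at an adjusted p under 0.05. Over all 1244 mature names tested, 2.65% were called higher and 2.73% lower, or 5.39% in either direction. With 8 libraries, 1 member was called higher and 1 lower, beside 3.46% higher and 2.98% lower, or 6.45% in either direction, of all 1241 names tested. At an unadjusted p under 0.05, 4 of the 8 members passed in either set, beside 15.8% of all names with 7 libraries and 18.3% with 8. By DESeq2 with 7 libraries, 2 members were called higher and 2 lower, beside 7.62% higher and 7.24% lower of the 801 names given an adjusted p. By DESeq2 with 8 libraries, 2 were called higher and 1 lower, beside 8.07% higher and 6.32% lower of 917 names. The median log2 fold change of the 8 members was -0.11 with 7 libraries and -0.25 with 8, against -0.08 with 7 and -0.07 with 8 over all names tested. The plot of fold changes shows that members of 1 seed family lay on both sides of 0.

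**Figure D3:**
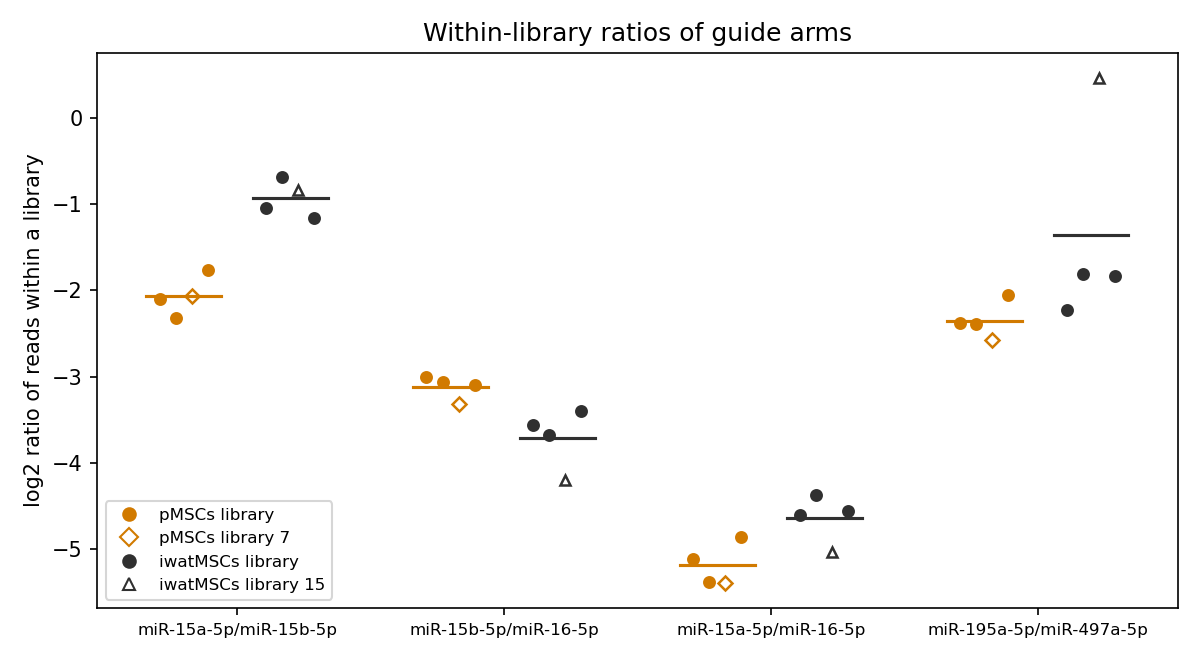
Log2 ratio of the reads of 2 family members within each library, with pMSCs left of iwatMSCs; bars are means of 4 libraries. The miR-15a-5p to miR-15b-5p ratio is lower in all 4 pMSCs libraries, with means of -2.06 in pMSCs and -0.94 in iwatMSCs, and iwatMSCs library 15 stands alone at 0.46 in the miR-195a-5p to miR-497a-5p ratio.

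Ratios of 2 members within a library do not depend on how libraries are scaled to each other. The reads of miR-15a-5p were 0.200 to 0.295 of those of miR-15b-5p in pMSCs and 0.448 to 0.619 in iwatMSCs, without overlap. The mean log2 ratio was -2.06 ± 0.23 in pMSCs and -0.94 ± 0.21 in iwatMSCs (SD, n = 4 each), a difference of -1.12 (two-sided exact permutation test, p = 0.0286, adjusted p = 0.114 over 8 ratios). That p is the smallest that 4 against 4 libraries allow. The reads of miR-15b-5p were 0.100 to 0.124 of those of miR-16-5p in pMSCs and 0.0548 to 0.0949 in iwatMSCs, with a log2 difference of 0.58 (exact permutation p = 0.0286, adjusted p = 0.114). On the deposited TPM of 7 libraries this difference was 0.34. For miR-15a-5p over miR-16-5p the ranges overlapped, at 0.0239 to 0.0344 in pMSCs and 0.0305 to 0.0484 in iwatMSCs, with a log2 difference of -0.54 (exact permutation p = 0.0571, adjusted p = 0.114). Thus 0 of the 8 ratios passed after adjustment, and 2 of 8 had an unadjusted p under 0.05. Because no p can lie below 0.0286 in the permutation test, a fully separated ratio could not pass alone after adjustment over 8 ratios. The lack of a pass therefore does not tell whether these ratios differ. Without library 7 the difference for miR-15a-5p over miR-15b-5p was again -1.12, that for miR-15b-5p over miR-16-5p 0.65 and that for miR-15a-5p over miR-16-5p -0.48, but 3 against 4 libraries cannot give a two-sided p below 0.0571.

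Members of 1 hairpin pair and arms of 1 hairpin were compared in the same way. These ratios are of rows of type mature, and they change when the hairpin rows described below are counted. The neighbours miR-195a-5p and miR-497a-5p had a ratio of 0.168 to 0.240 in pMSCs. In iwatMSCs it was 0.213 to 0.286 in 3 libraries and 1.37 in library 15, where the usual order of the pair was turned round (log2 difference -0.995, exact permutation p = 0.0571, adjusted p = 0.114). The difference was -0.39 without library 15 and -0.92 without pMSCs library 7. The guide of Mir15b was 15.2 to 26.7 times its passenger arm in pMSCs and 19.8 to 24.4 times in iwatMSCs, and the guide of Mir15a was 155 to 635 times its passenger arm in pMSCs and 274 to 743 times in iwatMSCs. Both pairs of ranges overlapped with 8 libraries, and the log2 difference was -0.35 for Mir15b (exact permutation p = 0.143, adjusted p = 0.190) and -0.57 for Mir15a (exact permutation p = 0.343, adjusted p = 0.371). Without pMSCs library 7 the Mir15b difference was -0.54, with 15.2 to 16.5 in pMSCs and no overlap. The Mir15a difference moved with single libraries, to -0.99 without pMSCs library 7, -0.31 without pMSCs library 5, -0.36 without pMSCs library 8 and -0.27 without iwatMSCs library 14. The passenger arms miR-15a-3p over miR-15b-3p differed by -0.90 on the log2 scale (exact permutation p = 0.143, adjusted p = 0.190), and miR-16-1-3p over miR-16-2-3p by -0.64 (adjusted p of the exact permutation test 0.371), both on few reads. Without pMSCs library 7 these differences were -0.67 for miR-15a-3p over miR-15b-3p and -1.18 for miR-16-1-3p over miR-16-2-3p, without overlap in the second. With 0 or 1 read of miR-16-1-3p a library, that difference was also -0.40 without iwatMSCs library 13, -0.41 without pMSCs library 5 and -0.97 without iwatMSCs library 14.

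**Figure D4:**
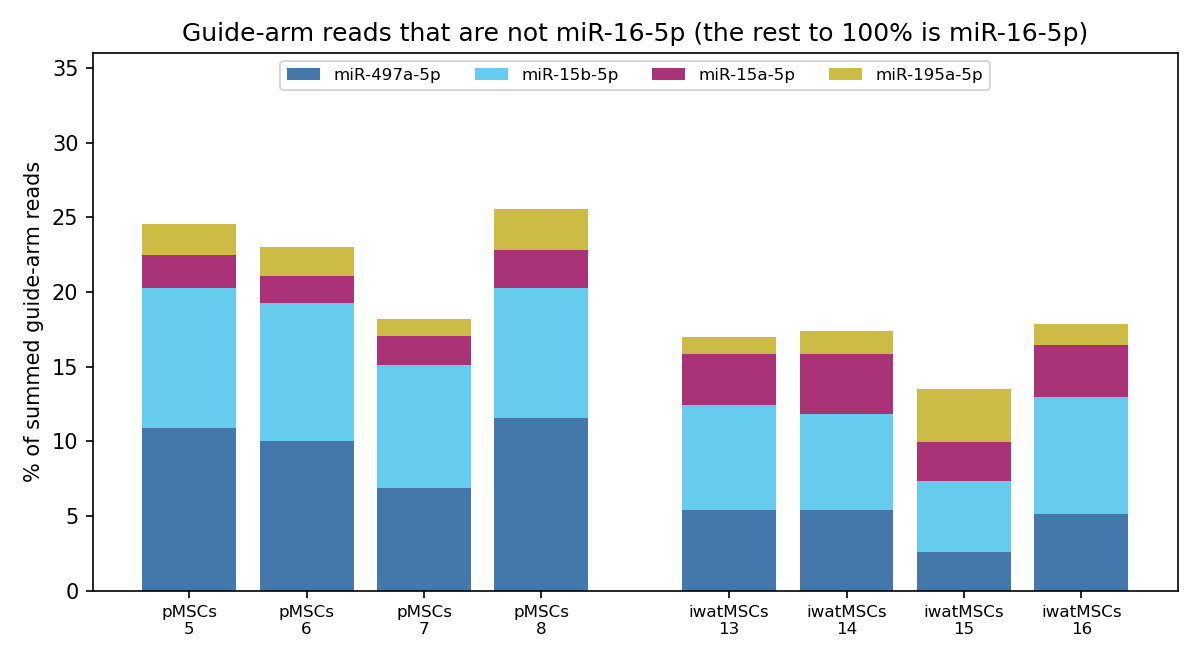
Share of each guide arm other than miR-16-5p in the summed reads of the 5 guide arms of each library, in percent, pMSCs left of iwatMSCs. The remainder, which is not drawn, is miR-16-5p. miR-16-5p takes 74.4 to 81.8% in pMSCs and 82.1 to 86.5% in iwatMSCs, and miR-497a-5p 6.89 to 11.6% in pMSCs and 2.59 to 5.39% in iwatMSCs.

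Because the 5 guides share a seed, their reads in rows of type mature were also summed as a pool. The pool took 1.59 to 2.28% of mature reads in pMSCs, with a median of 1.71%, and 2.21 to 3.68% in iwatMSCs, with a median of 2.46%. The highest pMSCs value was that of library 7 and the highest iwatMSCs value that of library 15. The remainder in the plot of shares is miR-16-5p, which made up most of the pool, with a median of 76.2% in pMSCs and 82.8% in iwatMSCs. The median share of miR-15b-5p was 8.96% in pMSCs and 6.76% in iwatMSCs, that of miR-497a-5p 10.4% in pMSCs and 5.26% in iwatMSCs, and that of miR-15a-5p 2.07% in pMSCs and 3.45% in iwatMSCs. The ranges of these 3 guides and of miR-16-5p did not overlap between the tissues. For miR-16-5p the gap was narrow, with 81.8% in pMSCs library 7 and 82.1% in iwatMSCs library 16, and its CPM overlapped with 8 libraries. The share of miR-195a-5p overlapped, at 1.15 to 2.77% in pMSCs and 1.15 to 3.55% in iwatMSCs. Shares of a pool sum to a fixed total, so that they are not separate measurements.

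**Figure D5:**
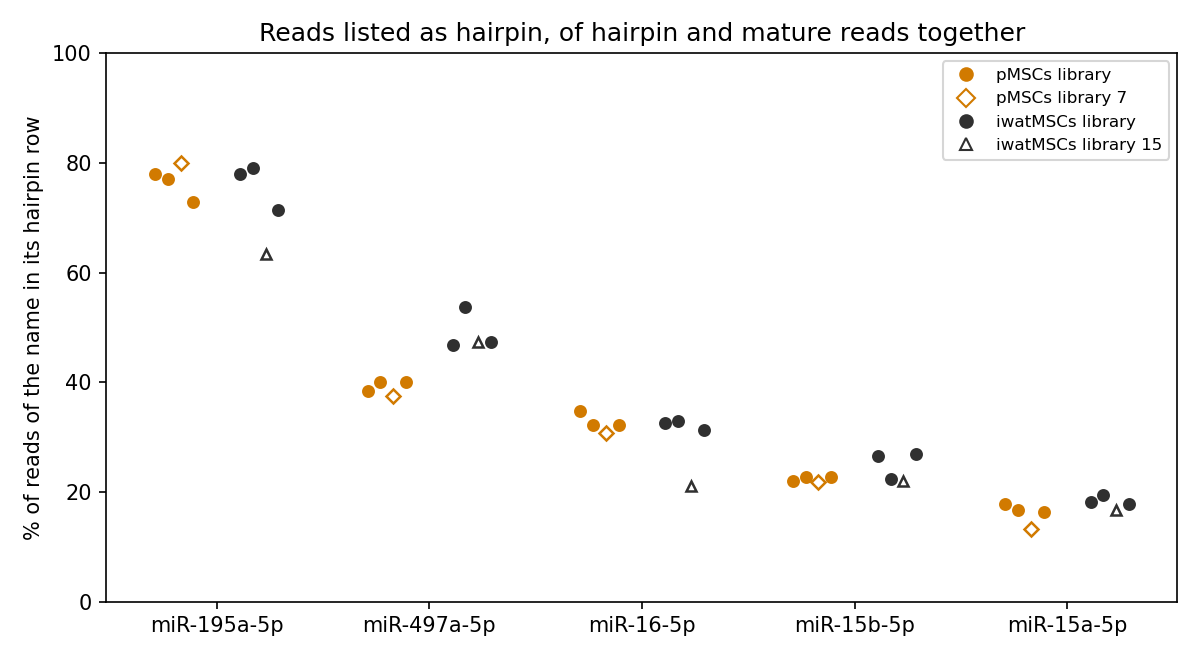
Percent of the reads of each guide name that the table lists in a row of type hairpin rather than mature, by library, pMSCs left of iwatMSCs. miR-195a-5p is highest, at 72.9 to 80.0% in pMSCs, and for miR-497a-5p the pMSCs libraries lie at 37.4 to 40.1%, below the 46.7 to 53.8% of iwatMSCs.

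Each member name had a second row of type hairpin, and the tests above used the mature row, as the study did. The levels, ratios and shares above also rest on the mature row. What separates the rows is not given in the sources used here, and the share in the hairpin row differed widely between members. It was 13.3 to 17.8% in pMSCs and 16.8 to 19.5% in iwatMSCs for miR-15a-5p, 21.8 to 22.8% in pMSCs and 22.1 to 27.0% in iwatMSCs for miR-15b-5p, and 30.8 to 34.8% in pMSCs and 21.1 to 32.9% in iwatMSCs for miR-16-5p. For miR-195a-5p most reads were in the hairpin row, 72.9 to 80.0% in pMSCs and 63.5 to 79.1% in iwatMSCs. The same held for the passenger arm miR-15b-3p, with 64.2 to 72.8% in pMSCs and 61.2 to 71.5% in iwatMSCs. With both rows counted, the ratio of miR-195a-5p to miR-497a-5p was higher in every library and that of miR-15b-5p to miR-15b-3p was lower. In iwatMSCs library 15 the hairpin row of miR-195a-5p held 19510 reads. The other iwatMSCs libraries held 6980 to 11390 and the pMSCs libraries 9180 to 11784, so that library 15 was high in both rows. The plot of hairpin shares shows that the share of miR-497a-5p was lower in every pMSCs library than in any iwatMSCs library. The order of the guides below miR-16-5p depended on the row. In iwatMSCs library 14, miR-15b-5p had 12608 mature and 3628 hairpin reads, and miR-497a-5p had 10508 and 12215. With both rows counted, miR-497a-5p lay above miR-15b-5p in iwatMSCs libraries 13 and 14 and below it in libraries 15 and 16. In pMSCs library 5, miR-195a-5p had 2595 mature and 9180 hairpin reads, and miR-15a-5p had 2708 and 586. With both rows summed, an alternative chosen after seeing the data, the log2 fold change of miR-497a-5p with 8 libraries was 0.42 and was not called (edgeR adjusted p = 0.218). That of miR-15a-5p was -1.20 with 7 libraries (edgeR adjusted p = 0.00453) and -1.12 with 8 (edgeR adjusted p = 0.00236).

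Other products of these loci and of this seed were read beside the members. miR-195a-3p, the opposite arm of miR-195a-5p, had 11.4 to 14.8 CPM in pMSCs and 4.88 to 9.47 CPM in iwatMSCs, without overlap, and did not pass the test (log2 fold change 0.70, approximate SE 0.32, edgeR adjusted p = 0.337 with 7 libraries, and 0.82, approximate SE 0.27, edgeR adjusted p = 0.133 with 8). In library 15, where miR-195a-5p was highest, miR-195a-3p was lowest. miR-497a-3p had at most 3 reads, and miR-497b, from the strand opposite Mir497, 3 to 5 reads in pMSCs and 2 to 5 reads in iwatMSCs. miR-322-5p, the guide with the same seed from the X chromosome, averaged 2020 ± 215 CPM in pMSCs and 1923 ± 341 CPM in iwatMSCs (SD, n = 4 each). Its log2 fold change was 0.04 (approximate SE 0.20, edgeR adjusted p = 0.937) with 7 libraries and 0.07 (approximate SE 0.16, edgeR adjusted p = 0.840) with 8.

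As a description, the log2 CPM of miR-15a-5p over 8 libraries was most like that of miR-196a-5p (Pearson r = 0.966), miR-196b-5p (r = 0.961) and miR-31-3p (r = 0.955), among 179 names with a mean of at least 100 CPM over the 8 libraries, which a name can reach through 1 tissue alone. That of miR-497a-5p was most like miR-652-3p (r = 0.953), miR-181c-5p (r = 0.940) and miR-23b-5p (r = 0.928). The 8 points share their libraries and fall into the 2 tissues, so a high r shows a like gap between tissues more than a relation within them. The gap of miR-196a-5p, a miRNA of the Hox clusters, was far larger, at 79.2 to 107 CPM in pMSCs and 16312 to 22107 CPM in iwatMSCs.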

How the data were processed

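The read counts of each small RNA per library were made by the authors (sequencing by BGI, with Bowtie2 named as aligner) and were used as deposited. The genome build, the miRNA release and the difference between rows of type mature and hairpin are not given in the sources used here. The score that the authors call TPM was deposited as whole numbers, and in pMSCs library 7 it was 1 for 599 of 634 mature names with at least 10 reads, so it was used with 7 libraries as an alternative only. All 16 value columns were mapped by library number. Library 7 is the one the study left out, since the 58 pMSCs means in its tables were matched only with that library left out.

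The test was the two-sided quasi-likelihood F test of edgeR 4.0.16 (R 4.3.3, TMM, no term but tissue), run on mature names whose reads averaged 1 or more in either tissue, with Benjamini-Hochberg adjustment over all names tested and calls at an adjusted p under 0.05. Standard errors are approximate: each is the absolute log2 fold change divided by the root of its F. Ratios within a library used 0.5 reads as pseudocount and an exact permutation test (scipy 1.17.1). DESeq2 1.42.0 and limma 3.58.1 (log2 of TPM + 1) served as alternatives. All 9 members are named, with names of the same seed, other arms of the 3 loci and, for each called member, the 3 names of at least 100 CPM on average most like it. The members, lists and tests were chosen with earlier results of these data known. The labels do not tie libraries to mice or cultures, so p-values measure the spread between these libraries.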

Additional observations from a re-analysis of the deposited data

Results flagged for a closer look

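In 4 of 32 sets of 4 libraries, 1 library lay far from the other 3 by Dixon's test, which chance alone does in about 1 of 20 such sets. The sets are levels and ratios made from the same reads, so they are not separate tests. An excess over 1 of 20 cannot be read from them. miR-195a-5p in iwatMSCs library 15 had 1191 CPM, with the nearest library at 369.6 CPM. The log2 ratio of miR-195a-5p to miR-497a-5p was 0.46 in the same library, with the nearest at -1.81. The log2 ratio of miR-16-1-3p to miR-16-2-3p was -2.66 in pMSCs library 7, with the nearest at -4.75, and rested on 1 read. The log2 ratio of miR-15b-5p to miR-15b-3p was 4.74 in pMSCs library 7, with the nearest at 4.05.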

How the results depend on the processing

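The lower level of miR-15a-5p kept its sign in all 21 fits and its call in 19, between -1.23 and -1.05, and without any 1 library it lay between -1.21 and -1.09 (edgeR adjusted p 0.0130 to 0.0426). The 2 fits without the call were those on the deposited TPM with limma, with -1.13 and adjusted p of 0.0620 (pseudocount 1) and 0.0693 (pseudocount 0.5), where 0 members were called lower. miR-497a-5p was positive in all 21 fits and called in 6, with adjusted p from 8.71e-05 to 0.301. The members called higher were 1, not 0, with all 8 libraries, totals over all small RNA types, a mean of at least 10 reads, or known names only, and 2 with DESeq2 on 7 or 8 libraries (miR-15b-3p and miR-497a-5p). By DESeq2 on 7 libraries 2 were called lower, with miR-16-5p added (adjusted p = 0.0106). Over all names, 33 were called higher and 34 lower. Without any 1 library these were 24 to 34 higher and 18 to 31 lower, with 18 lower without pMSCs library 6, 19 without iwatMSCs library 16, 20 without pMSCs library 5 and 22 without pMSCs library 8. With DESeq2 61 were higher and 58 lower on 7 libraries, and 74 higher and 58 lower on 8.

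The sign of 4 members turned, none of them called in any fit. miR-15a-3p lay between -0.35 and 0.12 without any 1 library. miR-15b-5p was at 0.0624 with 8 libraries, 0.0668 by DESeq2 on 8, 0.0562 on 8 without iwatMSCs library 15, 0.00626 on 8 with both rows summed, and -0.10 to 0.0624 without any 1 library. miR-16-2-3p was at 0.0376 with DESeq2's size factors, 0.0211 by DESeq2, 0.0315 without a filter, 0.0258 with known names only, 0.0207 with a mean of at least 10 reads, 0.26 and 0.18 with both rows summed on 7 and 8 libraries, 0.0105 on 8 without library 15, and -0.25 to 0.15 without any 1 library. miR-195a-5p lay between -0.64 and 0.32, with 0.32 without library 15, and 0.21 on 8 libraries without library 15. The causes were not tested. None of the 8 ratios passed in any of the 10 alternatives, of which 9 compare 3 with 4 libraries and could not pass (smallest p 0.0571). With 4 against 4 libraries, a ratio could pass only if several ratios separated fully together. Alternatives with both rows summed, with 8 libraries by DESeq2 or with 8 libraries without library 15 were chosen after seeing the data. No paired analysis was possible because the libraries of the 2 tissues share no replicate number, although both tissues came from the same mice. Depth limits miR-15a-3p, miR-16-1-3p and miR-16-2-3p, with at most 26 reads in a library.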
